A study of Mus musculus with 4 samples.

Results

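The genes described here build the hemidesmosome and its ligand laminin-332, and were chosen by name as Lama3, Lamb3, Col17a1, Itga6, Itgb4, Cd151, Dst and Plec. They are 8 of the 49671 genes in the deposited table, and all 8 passed the filter on low values that left 18737 genes. RNA-seq was performed on epithelial cells sorted from the tips of ventral prostate ducts of untreated male CD-1 mice at postnatal days 10 to 13 as labelled (the study's methods give a slightly narrower range), from ventral lobes of several mice. After removal of cells that stained for CD45, CD31 or CD140a, basal cells were taken as EpCAM high and CD49f high (replicates 1 and 3) and luminal cells as EpCAM high and CD49f low (replicates 3 and 2). At this age the basal cells are the multipotent population and the luminal cells derive from them, and each group rests on its sort gate alone. Nothing in the labels says which litters went into which library, so the tests measure the spread between 2 libraries of each group.

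A hemidesmosome rivets the base of an epithelial cell to the basement membrane and, on the inside, to keratin filaments. Laminin-332 is a secreted basement membrane protein whose alpha and beta chains are encoded by Lama3 and Lamb3, and it is the main ligand of the integrin that Itga6 and Itgb4 encode. Collagen XVII (Col17a1) and the tetraspanin CD151 sit beside that integrin in the membrane, and the plakins plectin (Plec) and BP230, the epithelial product of Dst, tie it to keratins 5 and 14. In the prostate these junctions are a feature of basal cells, which lie on the basement membrane. Itga6 encodes CD49f, the antigen on which the cells were sorted, so its difference between the groups is a property of the gate and is given as a description. Itgb4 encodes the partner chain of the same surface protein.

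Values are normalized counts, which the authors had scaled so that each library has about the same sum. The value of 1 read, found from the spacing of low values, was 6.26 and 6.50 in basal replicates 1 and 3 and 19.4 and 31.2 in luminal replicates 3 and 2. The libraries thus held from 643267 to 3194307 recovered reads, and both luminal libraries were shallower than both basal libraries, so that depth and cell type cannot be told apart. Basal markers (Krt5, Krt14, Krt15 and Trp63) summed to 56721 and 42522 in basal cells and to 2246 and 1744 in luminal cells, and 4 of 4 were called lower in luminal cells. The luminal markers Krt8 and Krt18 summed to 8886 and 10997 in basal cells and to 30825 and 19757 in luminal cells, and 0 of 2 passed the limma test (2 at an unadjusted p under 0.05, and 2 by edgeR and by DESeq2, all higher). Fibroblast markers were present in all 4 libraries despite the CD140a gate, with sums of 78177 and 149596 in basal replicates 1 and 3 and of 45966 and 123062 in luminal replicates 3 and 2. Smooth muscle marker sums were 29435, 50557, 6680 and 57277 in the same order. Col3a1 and Des were left out of these sums, as each had a value off the spacing of its library. Immune markers summed to 725 and 162 in basal cells and to 39 and 62 in luminal cells. These sums rest on 116 and 25 reads in basal cells and on 2 reads in each luminal library. The part of these other cells in the results was not tested.

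All 8 genes were lower in luminal than in basal cells, and for each of them both luminal libraries lay under both basal libraries. This pattern held for 27.3% of all genes tested, and the opposite one for 23.6%. Lama3, Col17a1, Dst and Itga6, 4 of the 8, had an adjusted p under 0.05 (limma with Benjamini-Hochberg adjustment over all 18737 genes), a call made for 0.438% of genes in the lower and 0.256% in the higher direction. Without Itga6, 3 of 7 passed. All 8 had an unadjusted p under 0.05 in the lower direction, as did 10.7% of genes, and all 8 were at or under a fold of 0.5 of the group averages, as were 16.3% of genes, while 18.3% were at 2 or over. Lamb3 passed the filter only through the basal group, where it is high, so its lower level in luminal cells is in part set by the filter, and it is no support in these counts. The median log2 fold change of the 8, luminal over basal, was −2.46 against −0.10 over all genes tested. By edgeR on recovered reads, 7 of 8 passed (all but Cd151), where 2.87% of genes did in this direction, and by DESeq2 the same 7, where 2.23% did. The 8 genes were chosen with earlier results of these data known, so these counts are a description and no independent support. The 8 genes together took 0.855% (Wilson 95% interval, 0.845% to 0.865%) and 0.850% (from 0.840% to 0.861%) of the reads in basal replicates 1 and 3. In luminal replicates 3 and 2 they took 0.139% (from 0.132% to 0.146%) and 0.148% (from 0.139% to 0.157%). These and the other read intervals cover counting error only.

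**Figure D1:**
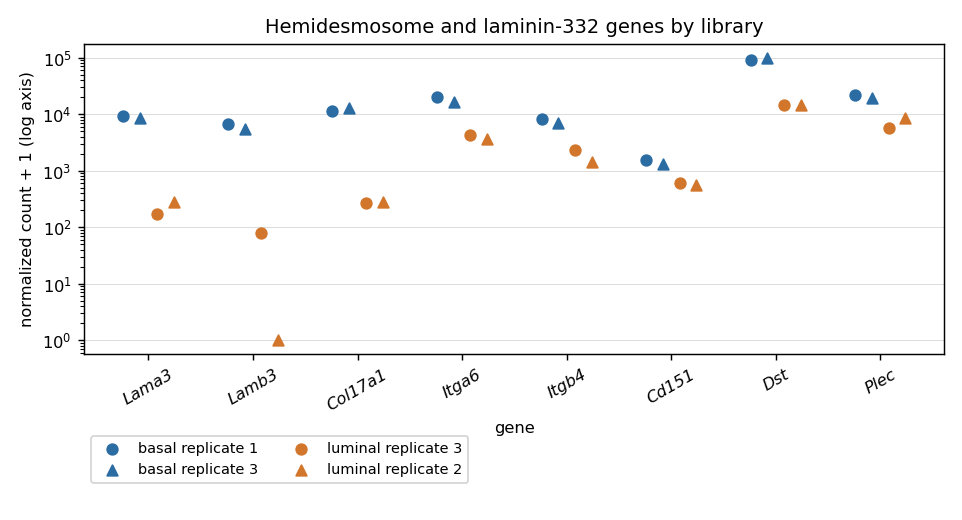
Normalized count plus 1 (log axis) of the 8 genes in each library, with basal libraries in blue and luminal libraries in orange. For each of the 8 genes both orange points lie under both blue points, from a narrow gap in Cd151 (1566 and 1306 against 600 and 561) to wide ones in Col17a1 (11605 and 13017 against 271 and 280) and Lamb3 (6626 and 5385 against 77 and 0).

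The 8 genes differed in how much of their level was left in luminal cells. Lamb3, Col17a1 and Lama3 kept at most a few percent of their basal level in luminal cells. Dst, Itga6 and Itgb4 kept between 15.3% and 26.2%, and Plec and Cd151 kept 32.6% and 40.7%. These are luminal reads over basal reads, each pooled over 2 libraries and scaled by the values of 1 read in those libraries. The exact 95% intervals of the first 3 genes, which together ran from 0.216% to 3.83%, did not meet those of the other 5, which ran from 14.4% to 54.7%. The basal markers set beside them kept 0.487% (Krt5), 0.944% (Krt14), 1.33% (Trp63) and 15.3% (Krt15). Whether a few basal cells in the luminal gate account for the reads left was not tested. In bulk libraries, fewer cells that express a gene and less RNA per cell cannot be told apart.

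**Figure D2:**
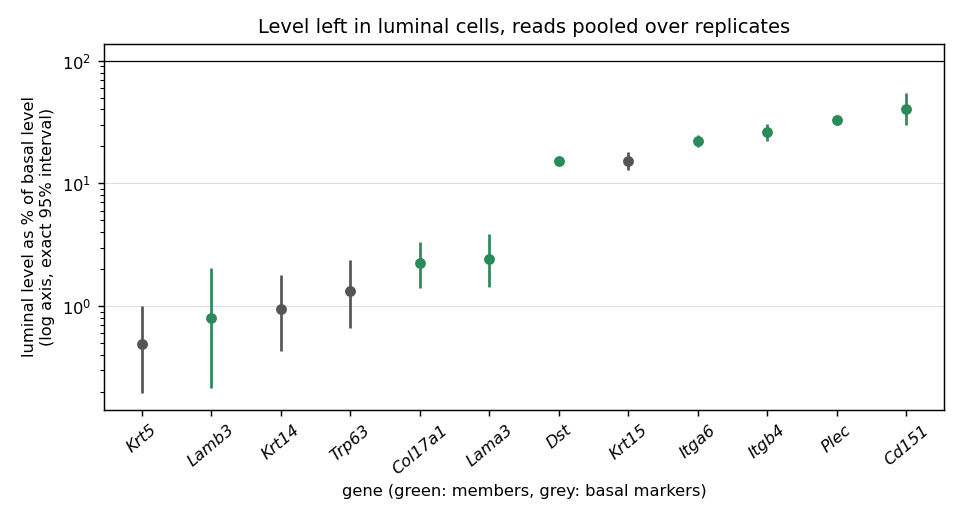
Luminal level as a percentage of the basal level (log axis), from reads pooled over the 2 libraries of each group, with exact 95% intervals for counting error; the line marks 100%. Lamb3, Col17a1 and Lama3 lie with Krt5, Krt14 and Trp63 at 0.487% to 2.42%, and the other 5 members at 15.3% to 40.7%.

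Both laminin-332 chains among the 8 genes had few reads in luminal cells. Lama3, the alpha 3 chain that carries the binding site for the integrin (chr18:12333819-12583013, plus strand, GRCm38), had 9137 and 8613 normalized counts in basal cells and 174 and 280 in luminal cells. The luminal values rest on 9 reads in each library, against 1459 and 1326 in basal cells. Its average was 39.1-fold lower in luminal cells, with a log2 fold change of −5.32 (SE 0.31, 95% confidence interval −6.11 to −4.54, limma adjusted p = 0.0184). The call was lost when basal replicate 1 (limma adjusted p = 0.0925) or basal replicate 3 (limma adjusted p = 0.0894) was left out.

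Lamb3, the beta 3 chain (chr1:193207699-193343878, plus strand), had 6626 and 5385 normalized counts in basal cells, 77 in luminal replicate 3 and 0 in luminal replicate 2. These luminal values are 4 reads and 0 reads, against 1058 and 829 reads in basal cells, and 0 of 643267 reads allows up to 3 reads. The group ranges lay far apart. Its pooled luminal level was 0.794% of the basal level (exact 95% interval 0.216% to 2.04%). The zero sets the fitted log2 fold change, which is no bound and was −9.40 (SE 1.97) with a pseudocount of 1 and missed the threshold (limma adjusted p = 0.0705). It was −12.54 without luminal replicate 3 (limma adjusted p = 0.0174), −6.26 without luminal replicate 2 (limma adjusted p = 0.0412) and −6.95 by edgeR on recovered reads (adjusted p = 4.55e-05). Since the basal group alone admitted Lamb3 to these tests, its values are a description.

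Within a library, a ratio of 2 genes does not depend on the scaling. Lamb3 to Lama3 was 0.725 and 0.625 in basal cells and 0.443 and 0 in luminal cells, the latter from 4 and 0 reads of Lamb3. With 2 libraries of each group an exact permutation test of a ratio (two-sided) cannot go below p = 0.333, so the ratios were not tested.

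Levels were also scaled per kb of exon, to set different genes side by side. The length takes in all annotated exons of a gene, whichever transcripts are expressed, so such comparisons are approximate. On this scale both chains had like levels in basal cells. Lama3 reached 850 and 802 normalized counts per kb and Lamb3 1002 and 814, and the ranges overlapped. In luminal cells Lama3 had 16.2 and 26.1 and Lamb3 11.6 and 0 normalized counts per kb.

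**Figure D3:**
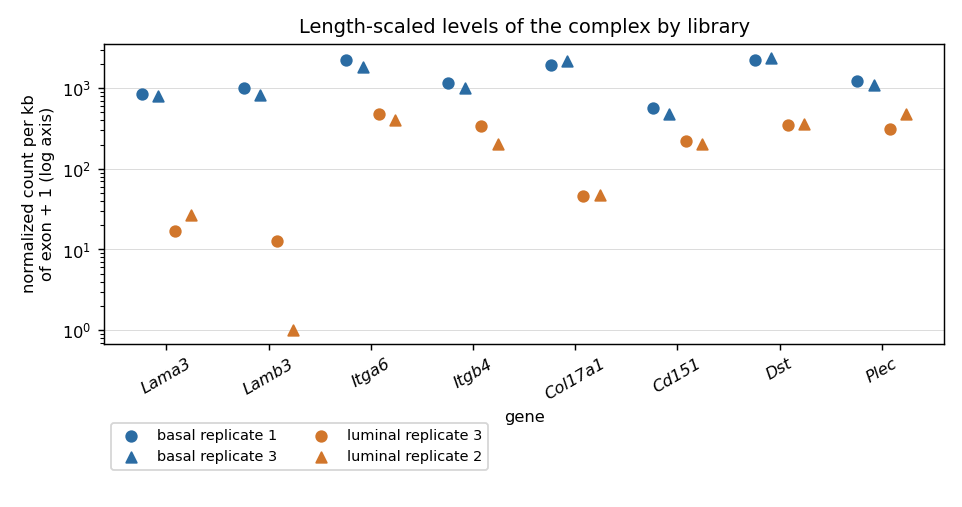
Normalized count per kb of exon (all annotated exons of a gene) plus 1 (log axis) of the 8 genes in each library. Basal libraries are in blue and luminal libraries in orange. In basal cells all points lie between 476 (Cd151) and 2396 (Dst), while in luminal cells Itga6 (481 and 397) reaches highest and Lama3, Lamb3 and Col17a1 lie at 46.6 or lower.

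At the membrane, Col17a1 stood apart from the integrin beside which its protein works. Col17a1 (chr19:47646344-47692094, minus strand), a transmembrane collagen that spans from the plaque to the basement membrane, had 11605 and 13017 normalized counts in basal cells and 271 and 280 in luminal cells. The luminal values rest on 14 and 9 reads, against 1853 and 2004 in basal cells. It was 44.7-fold lower, with a log2 fold change of −5.47 (SE 0.23, limma adjusted p = 0.00613), an adjusted p tied for the lowest with those of Krt5 and Krt14, whose unadjusted p were lower. Of the 8 genes it alone passed the test without each of the 4 libraries in turn (limma adjusted p = 0.0167 to 0.0265).

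Itga6, the alpha 6 integrin chain and sorting antigen (chr2:71745616-71858416, plus strand), had 20222 and 16382 normalized counts in basal cells and 4337 and 3584 in luminal cells. The average was 4.62-fold lower in the CD49f low gate, with a log2 fold change of −2.21 (SE 0.24, limma adjusted p = 0.0410). That call was lost without any 1 of the 4 libraries (limma adjusted p = 0.111 to 0.183), namely without basal replicates 1 or 3 or luminal replicates 3 or 2. Even so, 224 and 115 reads of Itga6 remained in luminal replicates 3 and 2. With all 4 libraries, its call was also lost with a pseudocount of 0.5 (limma adjusted p = 0.0526). The same held with scaling on nuclear protein-coding genes (limma adjusted p = 0.0579) and without a trended prior (limma adjusted p = 0.106). Itgb4, the beta 4 chain (chr11:115974709-116008412, plus strand), had 8079 and 7126 normalized counts in basal cells and 2362 and 1402 in luminal cells. It was 4.04-fold lower, with a log2 fold change of −2.06 (SE 0.31), and missed the threshold (limma adjusted p = 0.0637; edgeR adjusted p = 0.00407).

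The integrin chains stood in overlapping proportions in the groups, while collagen XVII relative to them did not. Itgb4 stood at 0.400 and 0.435 times Itga6 in basal cells and at 0.545 and 0.391 times in luminal cells, and these ranges overlapped. Col17a1 stood at 1.44 and 1.83 times Itgb4 in basal cells but at 0.115 and 0.200 times in luminal cells, a mean ratio 10.4-fold lower. Cd151, the tetraspanin that associates with laminin-binding integrins (chr7:141467392-141471473, plus strand), had 1566 and 1306 normalized counts in basal cells and 600 and 561 in luminal cells. It was 2.47-fold lower, with a log2 fold change of −1.30 (SE 0.27, limma adjusted p = 0.0705), and passed under no alternative run. Cd151 stood at 0.0774 and 0.0797 times Itga6 in basal cells and at 0.138 and 0.157 times in luminal cells, without overlap.

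The plakins were abundant in both groups. Dst (chr1:33908225-34308661, plus strand), whose transcripts encode the epithelial BP230 as well as longer neuronal and muscle forms that gene counts do not separate, had 91710 and 98605 normalized counts in basal cells and 14347 and 14802 in luminal cells. It ranked 9 among 18737 genes by basal average and 69 by luminal average, on values not scaled for its 41.2 kb of exons. It was 6.53-fold lower, with a log2 fold change of −2.71 (SE 0.26, limma adjusted p = 0.0354), and was not called without any 1 of the libraries, basal replicates 1 and 3 and luminal replicates 3 and 2 alike (limma adjusted p = 0.100 to 0.350). Plec, the linker of the beta 4 chain to keratins (chr15:76170974-76232574, minus strand), had 22151 and 19643 normalized counts in basal cells and 5654 and 8694 in luminal cells. It was 2.91-fold lower, with a log2 fold change of −1.57 (SE 0.29), and missed the threshold (limma adjusted p = 0.0688; edgeR adjusted p = 0.00967). Plec stood at 0.242 and 0.199 times Dst in basal cells and at 0.394 and 0.587 times in luminal cells. The ratio of Plec to Dst was thus higher in luminal cells, and the groups did not overlap.

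In basal cells the order of mean levels per kb of exon was Dst (2228 and 2396), Col17a1 (1931 and 2166) and Itga6 (2241 and 1815). The range of Itga6 overlapped those of both Dst and Col17a1, which did not overlap each other. Below them came Plec (1223 and 1084) and Itgb4 (1152 and 1016), which overlapped with each other, then Lamb3 and Lama3, which also overlapped, and Cd151 was lowest (571 and 476). In luminal cells Itga6 (481 and 397), Plec (312 and 480), Dst (349 and 360), Itgb4 (337 and 200) and Cd151 (219 and 205) were the upper group, in which neighbours overlapped except Dst with Itgb4. Col17a1 (45.1 and 46.6), Lama3 and Lamb3 lay apart below it. On this scale Col17a1 was thus among the highest of the 8 in basal cells and among the lowest in luminal cells. These orders are approximate, as they rest on all annotated exons, 41.2 kb for Dst, whose forms the counts do not separate.

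Promoter windows from RefSeq (GRCm38.p6; 250 bases before to 50 after a start site) were on hand for Col17a1, Lamb3, Dst and Cd151, 4 of the 8 genes. The windows below place genes with a small share of their basal level left in luminal cells (Col17a1, Lamb3) beside genes with a larger share (Dst, Cd151). Capitals mark matches to TATAAA, the SP/KLF box GGGCGG and the p63 half-site, and AP-1 (TGACTCA or TGAGTCA) was also searched, on both strands. Where 2 windows were listed, the first is shown. Which transcript form a window serves is not given, so the Dst window shown need not be that of BP230. The second Dst window (chr1:34160010-34160309) had 46.0% G and C.
Col17a1 (chr19:47691993-47692292, minus strand): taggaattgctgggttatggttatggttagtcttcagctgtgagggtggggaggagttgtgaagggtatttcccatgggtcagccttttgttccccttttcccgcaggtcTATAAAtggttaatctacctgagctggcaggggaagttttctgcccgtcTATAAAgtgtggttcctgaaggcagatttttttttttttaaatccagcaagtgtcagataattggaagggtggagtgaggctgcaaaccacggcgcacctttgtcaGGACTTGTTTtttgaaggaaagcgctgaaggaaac
Lamb3 (chr1:193301744-193302043, plus strand): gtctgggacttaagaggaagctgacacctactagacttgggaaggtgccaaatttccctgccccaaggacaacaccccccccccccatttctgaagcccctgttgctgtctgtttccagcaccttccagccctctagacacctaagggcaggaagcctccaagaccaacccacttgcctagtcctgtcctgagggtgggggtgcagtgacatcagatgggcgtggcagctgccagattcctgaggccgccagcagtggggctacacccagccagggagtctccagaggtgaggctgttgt
Dst (chr1:34011345-34011644, plus strand): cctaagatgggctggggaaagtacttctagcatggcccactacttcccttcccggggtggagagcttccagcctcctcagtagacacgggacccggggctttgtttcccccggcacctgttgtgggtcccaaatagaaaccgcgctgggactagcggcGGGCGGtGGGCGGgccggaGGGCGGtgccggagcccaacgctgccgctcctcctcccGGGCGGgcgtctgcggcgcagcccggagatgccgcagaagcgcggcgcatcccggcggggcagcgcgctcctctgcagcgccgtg
Cd151 (chr7:141467112-141467411, plus strand): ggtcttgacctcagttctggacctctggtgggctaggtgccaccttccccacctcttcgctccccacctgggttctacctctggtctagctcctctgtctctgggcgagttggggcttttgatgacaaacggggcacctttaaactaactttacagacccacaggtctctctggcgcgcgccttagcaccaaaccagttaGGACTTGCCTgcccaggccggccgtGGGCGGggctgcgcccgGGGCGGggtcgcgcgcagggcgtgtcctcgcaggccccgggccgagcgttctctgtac
The Col17a1 window held 2 TATAAA matches, starting 140 and 91 bases before the start site, and 1 p63 half-site starting at base 16 after it. It had 46.3% G and C. The Cd151 window held 1 p63 half-site and 2 GGGCGG boxes, with 64.3% G and C, and the Dst window held 4 GGGCGG boxes, with 70.3%. The Lamb3 window held none of these letters, nor did the second windows of Lamb3, Dst and Cd151, and AP-1 was found in 0 of the 7 windows. Of all 32851 windows of this length, 13.6% held TATAAA, 35.7% GGGCGG, 8.36% the p63 half-site and 5.20% an AP-1 match. A match describes letters and not binding.

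Among the other genes of cell-matrix adhesion in the lists, keratins left aside, 5 of the 31 that passed the filter (32 listed) were called lower in luminal cells by limma and 0 higher, against 0.438% and 0.256% of all genes. Past the fold threshold, 14 were lower and 2 higher, against 16.3% and 18.3% of all genes, and their median log2 fold change was −1.11 against −0.10 over all genes. At an unadjusted p under 0.05 by limma, 15 were lower and 2 higher, and edgeR and DESeq2 each called 9 lower and 0 higher. The lists too were chosen with earlier results of these data known, so their counts are a description. Of the anchoring partners, 2 of 7 passed the test. Col7a1, the collagen of anchoring fibrils that laminin-332 holds, had 7183 and 10854 normalized counts in basal cells and 562 and 717 in luminal cells (log2 fold change −3.80, limma adjusted p = 0.0285). Agrn, a basement membrane proteoglycan, had 17554 and 17376 in basal cells and 2769 and 2400 in luminal cells (log2 fold change −2.76, limma adjusted p = 0.0274). Lad1, which encodes the anchoring filament protein ladinin, was on the higher side in luminal cells, with 551 and 377 in basal cells and 987 and 748 in luminal cells, and was not called (log2 fold change 0.91, limma adjusted p = 0.264). Of the other laminin chains, 1 of 8 passed, Lama1, with 1397 and 1488 normalized counts in basal cells and 155 and 125 in luminal cells (log2 fold change −3.36, limma adjusted p = 0.0410). Lama5, the alpha chain of another epithelial laminin, had 13352 and 15655 in basal cells and 4879 and 2929 in luminal cells and was not called.

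Of the other laminin receptors and tetraspanins, 2 of 10 passed. Itga3, the alpha 3 integrin chain that pairs with beta 1 as another receptor for laminin-332, had 5405 and 4164 normalized counts in basal cells and 349 and 405 in luminal cells (log2 fold change −3.65, limma adjusted p = 0.0250). Bcam, a receptor for the laminin alpha 5 chain, had 3244 and 3969 in basal cells and 252 and 93 in luminal cells (log2 fold change −4.54, limma adjusted p = 0.0454). The tetraspanin Cd82 was the 1 gene of this list past the fold threshold in the other direction, with 263 and 169 in basal cells and 678 and 343 in luminal cells, and it was not called. None of the 6 plakin relatives and linkers that could be matched passed in limma (0 of 6; 3 lower and 1 higher at an unadjusted p under 0.05, and 1 lower by edgeR and by DESeq2). Dsp, the plakin of desmosomes, had 24938 and 22073 normalized counts in basal cells and 10514 and 7230 in luminal cells. Evpl, a plakin of the cornified envelope, had 188 and 201 in basal cells and 426 and 748 in luminal cells (log2 fold change 1.53, limma adjusted p = 0.161). Of the keratins that attach to hemidesmosomes, used above in part as basal markers, 3 of 4 were called lower, namely Krt5, with 18481 and 15824 in basal cells and 77 and 93 in luminal cells, Krt14 and Krt15. Krt17 had 3939 and 7548 in basal cells and 387 and 93 in luminal cells (limma adjusted p = 0.0637).

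**Figure D4:**
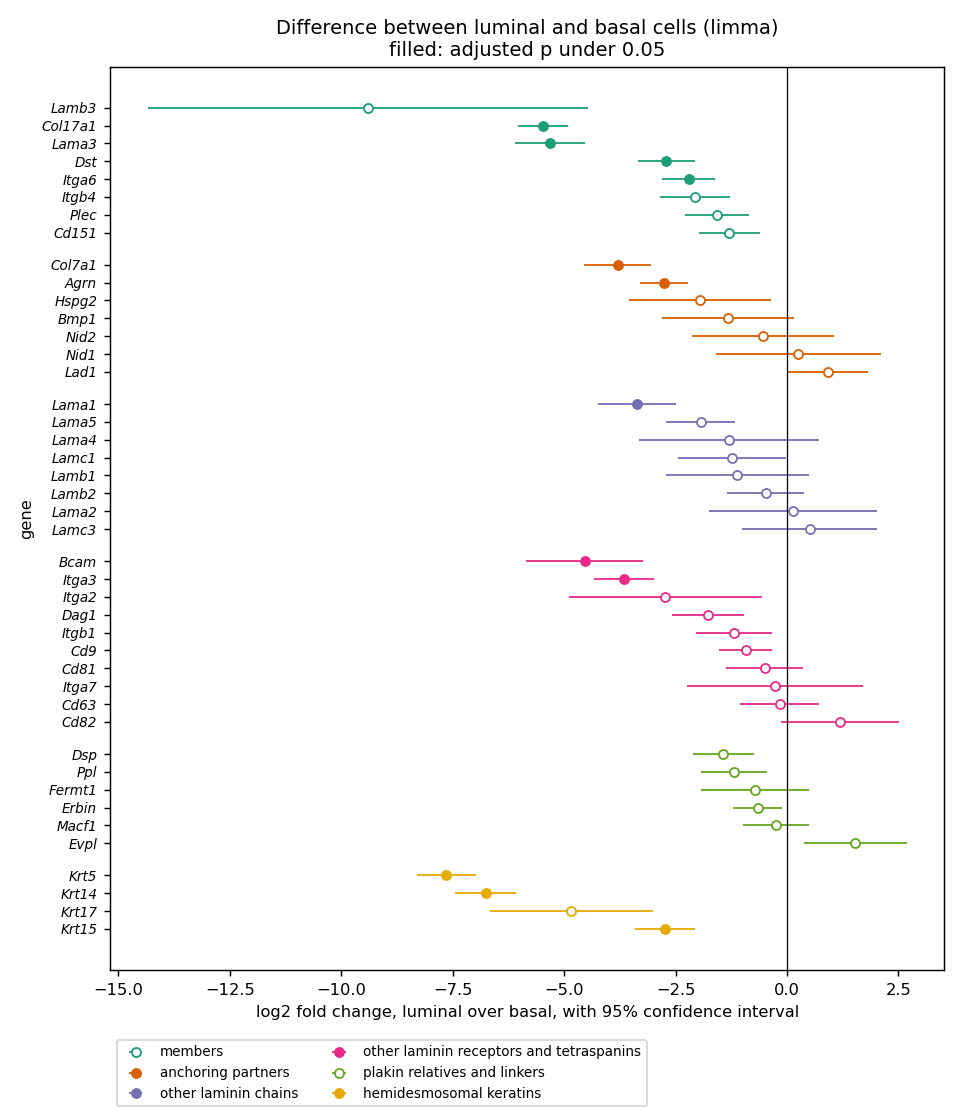
Log2 fold change, luminal over basal, with its 95% confidence interval from limma for the 8 genes and the other adhesion and keratin genes, grouped by list; filled points had an adjusted p under 0.05. All 8 member intervals lie below 0, with 4 filled points, and the widest interval is that of Lamb3, whose luminal values rest on 4 and 0 reads.

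Genes with a profile over the 4 libraries most like the mean of the 8 were found by the root mean square difference of centred log2(value + 1). The closest, with an average of 100 or more, were Plxnb1 (difference 0.0867), Gm26788 (0.107), Kitl (0.189), Camk4 (0.207) and Adm (0.215). Plxnb1, a semaphorin receptor, had 3588 and 2787 normalized counts in basal cells and 310 and 187 in luminal cells. Kitl, the ligand of the receptor KIT, had 10502 and 6808 in basal cells and 833 and 436 in luminal cells. These names rest on Lamb3, whose 4 and 0 luminal reads pull the mean down in luminal replicate 2. With Lamb3 left out of the mean, an alternative added after the data were seen, the 5 closest genes were Pltp (difference 0.0466), Chst11, Agrn, St3gal4 and Srd5a1 (0.137), and 0 of the 5 were shared. Pltp, a phospholipid transfer protein, had 2561 and 2332 normalized counts in basal cells and 329 and 343 in luminal cells. With 4 libraries such likeness describes little more than the shared drop, and the 8 genes themselves lay farther from their mean, from 0.601 (Dst) to 3.44 (Lamb3). Gm26788 lies on the opposite strand of Dst and shares exon sequence with it, and without stated strand use in counting its reads cannot be told apart from those of Dst.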

How the data were processed

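Libraries of total RNA (Ovation Solo) from sorted cells were sequenced by the authors, who mapped reads to GRCm38 (mm10) with STAR, counted genes of Ensembl 87 with HTSeq, brought the libraries to one total of aligned reads and deposited the result as whole numbers. The deposited signal per gene and library is this normalized count. Picard is named in the submitters' processing notes with no role, and counting mode, strand use and duplicate removal are not given in the sources used here. All columns were mapped, leaving 0 unmapped. Low values (at most 60 reads) are multiples of what 1 read is worth, and reads were recovered by that step: 99.0% and 97.9% of low values lay within 0.55 normalized counts of it for basal replicates 1 and 3, 98.6% and 98.3% for luminal replicates 3 and 2.

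Genes were kept with every library of a group at 10 or more and a group average of 20 or more. The test was limma 3.58.1 (R 4.3.3) with a trended prior on log2(normalized count + 1), a scale on which the pseudocount shapes the changes of genes with few reads (Lamb3 above all), with Benjamini-Hochberg adjustment over all genes, two-sided. Recovered reads were tested with edgeR 4.0.16 (quasi-likelihood) and DESeq2 1.42.0. Fold calls used group averages at 2 and 0.5. Scripts were tested on simulated data. GENCODE (GRCm38) gave symbols and positions for 49412 of 49671 identifiers. All 8 genes are named, and they and the other lists were chosen with earlier results of these data known. A few genes of those lists are not reported here. Likeness took the 5 closest genes. Alternatives were pseudocounts of 0.5 and 10, other filters and scalings, no trend, and leaving out each library.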

Additional observations from a re-analysis of the deposited data

How the results depend on the processing

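Of 119 values of the 8 genes under the alternatives, 88 kept direction and side of the threshold, 18 lost and 13 gained the call, and 0 changed sign. The members called, 4 in the reported fit, numbered 7 with a pseudocount of 10, 0 with no filter, 2 without a trended prior, 7 by edgeR, 7 by DESeq2 and 1 to 3 with a library left out (1, Col17a1, without basal replicate 1 or 3). The other adhesion and keratin genes called, 8 in the reported fit, numbered 0 with no filter, 5 without a trend, 13 by edgeR, 13 by DESeq2 and 2 to 4 with a library left out. All genes called, 130, numbered 54 and 531 with pseudocounts of 0.5 and 10, 0 with no filter (4455 at an unadjusted p under 0.05 by limma), 678 with a strict filter, 381 after quantile normalization, 544 without a trend, 957 by edgeR, 810 by DESeq2 and 312 to 991 with a library left out. Members called also numbered 3 with a pseudocount of 0.5, 3 with scaling on nuclear protein-coding genes and 6 with the strict filter. The cause of these shifts was not tested. The reported calls were 82 lower and 48 higher, against 104 and 277 after quantile normalization and 62 and 63 when libraries were scaled on nuclear protein-coding genes, where the median over all genes went from −0.10 to 0.21 (log2). With a library left out the split was 587 and 6 (basal replicate 1), 751 and 80 (basal replicate 3), 161 and 830 (luminal replicate 3) and 14 and 298 (luminal replicate 2). Past the fold threshold were 7 of 7 genes under the strict filter, which dropped Lamb3, and 7 of 8 with the nuclear scaling. At a fold of 4 there were 6 of 8, and in the other runs of this count 8 of 8. This count was not made with other pseudocounts, quantile normalization, no trend, edgeR or DESeq2. Where a group was left with 1 library, it is assumed to vary like the other group. No paired analysis was possible because the groups share 1 replicate number, which nothing ties to a shared sort. Lamb3, Lama3 and Col17a1 are limited by depth, with at most 14 luminal reads in a library.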

Other observations

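Transcripts that share exon sequence with the 8 genes, by position or by a match of at least 95% identity over 100 bases, numbered 8 in the table. For 6 of them both luminal libraries lay under both basal ones (27.3% of all genes tested) and for 1 over them (23.6%), and 3 were called lower by limma (0.438%), among them Gm29200, which like Lamb3 passed the filter only through the basal group and is no support. Gm29200, on the opposite strand of Lama3 over 1.83% of its exon bases, had 238 and 279 normalized counts in basal cells and was listed at 0 in both luminal libraries. Gm10575, on the opposite strand of Cd151 over 7.04% of its exon bases, was on the higher side in luminal cells, with 157 and 110 in basal cells and 387 and 499 in luminal cells (limma adjusted p = 0.142). B230344G16Rik, opposite to Itgb4 over 7.66% of its exon bases, had 651 and 643 in basal cells and 174 and 280 in luminal cells (limma adjusted p = 0.127). Gfer, which matches Dst over 573 bases, had 1954 and 2839 in basal cells and 387 and 312 in luminal cells (limma adjusted p = 0.0463). Gm29397, which matches Itga6 over 326 bases, had 463 and 383 in basal cells and 136 and 93 in luminal cells (limma adjusted p = 0.126). A930005N03Rik, opposite to Dst, had 1159 and 857 in basal cells and 271 and 343 in luminal cells (limma adjusted p = 0.0705), and Parp10, which overlaps Plec, had 163 and 149 against 155 and 280. Where reads of such pairs were assigned was not tested, and the values of all of them are uncertain to that extent. Lamb3 and Col17a1 had no such partner.

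In the deposited table, 572 genes had a value more than 0.55 normalized counts off the spacing of their library, and 444 of them lay in the last 5% of the table. Of their values in basal replicate 1, 90.25% lay within the same tolerance on the spacing of basal replicate 3. The 8 genes were on the spacing in all 4 libraries, and the 4 calls among the 8 were the same genes with those rows left out, an alternative chosen after the data were seen.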
